A study of Mus musculus with 20 samples.

Results

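The comparison described here sets 5 Abca7 knockin libraries against 5 control libraries from the cortex of 10-month-old mice, 10 of the 20 libraries of the series. They were chosen by their titles, which give age and genotype, and every gene in the count table was considered. All 10 libraries carry 5xFAD+/-, a background with human amyloid precursor and presenilin transgenes that bear familial Alzheimer's disease mutations, driven in neurons by the Thy1 promoter. Control is 5xFAD+/-; Abca7WT/WT. The knockin group (KI) carries the substitution that the protocol calls p.A693S and the series design A696S, and its label does not say whether an animal was heterozygous (5xFAD+/-; Abca7WT/KI) or homozygous (5xFAD+/-; Abca7KI/KI). The protocol speaks of male littermates. No group without 5xFAD was analysed here, so the effect of amyloid itself cannot be told apart from age or background. Whether each library came from its own animal is not stated, so the p-values rest on the spread among libraries, part of which may be technical.

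Abca7 encodes an ATP-binding cassette transporter that moves phospholipid and cholesterol out of cells, and its human counterpart carries risk variants for Alzheimer's disease. Cells sense membrane cholesterol in the endoplasmic reticulum, where INSIG proteins hold the SCAP and SREBP complex; when sterol is low, SREBP is released, cut and sent to the nucleus, where it switches on the enzymes of cholesterol synthesis and genes of sterol uptake. In cortex with advanced amyloid, microglia around plaques take on a state marked by Trem2, Tyrobp, Cst7 and lysosomal genes.

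The 10 libraries held 42958745 to 55275986 counts. Levels are counts scaled to library size (CPM, with TMM scaling), and a gene was called at a Benjamini-Hochberg adjusted p under 0.05 in edgeR's quasi-likelihood test over 19623 genes. Slc17a7, a marker of cortical excitatory neurons, was at 1036 to 1408 CPM in control and 997 to 1294 CPM in KI, and the thalamic gene Shox2 was at 0 to 0.0538 and 0 to 0.0785 CPM. Markers of striatum summed to 356.6 to 531.7 CPM in control and 236.3 to 557.1 CPM in KI, lowest in KI replicate 6. The part of striatal tissue in the results was not tested. KI replicate 5 stood apart: it held 1016 CPM of Xist, a transcript made by females, against at most 0.381 CPM in the other 9 libraries. It held 1 count of Ddx3y, a gene of the Y chromosome, against 2382 to 3497 in the other 9. Both go against the protocol's male animals. It lay at -55.8 on a principal component where the other 9 lay between -8.02 and 28.1. The genes of largest weight on that component were Xist, Ddx3y, Eif2s3y, Kdm5d and Uty, all of the sex chromosomes. KI replicate 5 thus differs from the other libraries in sex markers, and the part of sex in its values was not tested. Markers of choroid plexus, the fluid-secreting tissue of the ventricles, summed to 320.5 to 3525 CPM in control and 324 to 2476 CPM in KI, with 0 of 14 members above a log2 fold change of 0 and a median of -0.882. The main values are also given without KI replicate 5 or with a choroid plexus covariate where these move them by over 1.5 times, and the part of either in the results was otherwise not tested.

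At 10 months 12 genes differed between KI and control, 7 higher and 5 lower, which is 0.0612% of the genes tested (0.0357% higher and 0.0255% lower). They fall into 3 sets: 5 genes of chromosome 10, where Abca7 itself lies, with a pseudogene on chromosome 5; 4 genes of the sterol pathway; and the low-level gene Asb10 with the transcription factor gene Rreb1. Without KI replicate 5 the call count was 14 (0.0713%), with 8 of the 12 among them: the calls of Asb10, Rreb1, Fdft1 and Nsdhl were lost. It was 7 without control replicate 6, 9 or 10 or KI replicate 3, and 7 with the choroid plexus covariate, whereas DESeq2 called 58 (0.296%) and limma-voom 75 (0.382%). At an unadjusted p under 0.05 there were 1543 genes (7.86%), 889 higher (4.53%) and 654 lower (3.33%). The libraries of the groups did not overlap at 293 genes (1.49%), at 178 with KI above (0.907%) and at 115 with KI below (0.586%). Among 19623 genes, 138 (0.703%) had an absolute log2 fold change of at least 1. Most genes differed little: among 8108 genes between 10 and 100 CPM, the median absolute log2 fold change was 0.068 and the median SE 0.091, whereas among 4092 genes under 1 CPM they were 0.245 and 0.307.

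**Figure D1:**
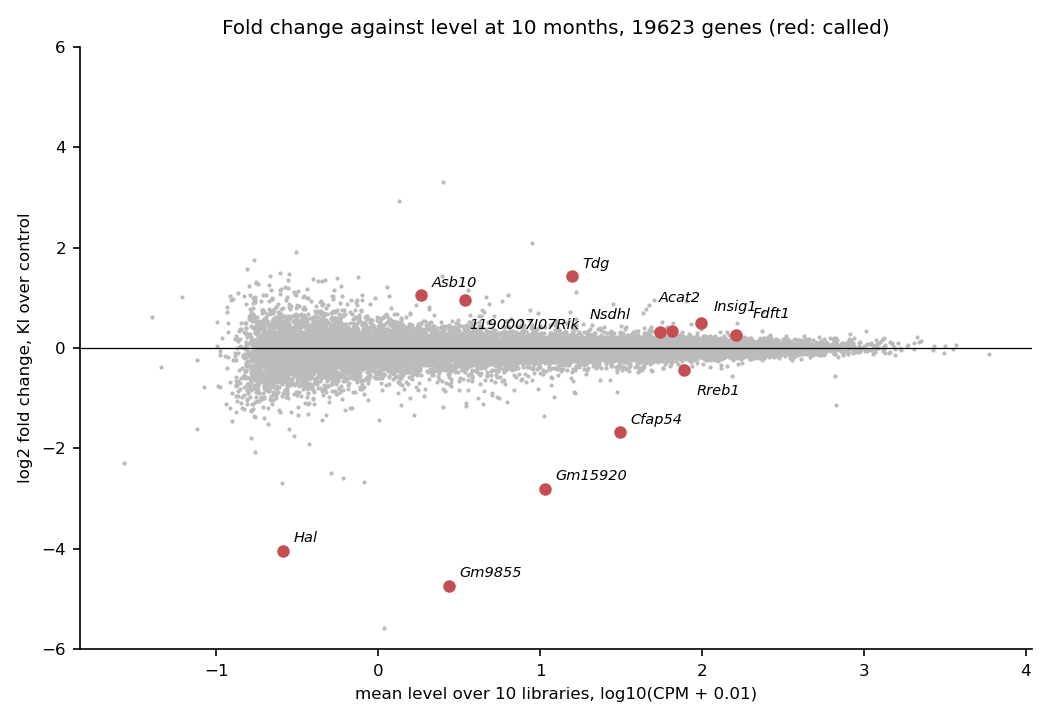
Each point is a gene, by its mean level over the 10 libraries (log10 of CPM + 0.01) and its log2 fold change, KI over control, with the 12 called genes in red and named. Xist, at 9.90 from KI replicate 5 alone, lies outside the plotted range, and the scatter widens toward low levels.

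The targeted gene, Abca7 (chromosome 10, 79996494 to 80015572, mm10), stood at 22.3, 25.9, 32.9, 30 and 24.1 CPM in control replicates 6 to 10 and at 23.9, 21.2, 19.6, 26 and 29.9 CPM in KI replicates 3 to 7. The ranges overlap almost fully, with the highest library in control and the lowest in KI. The mean log2 CPM was lower in KI by 0.166 (log2 difference of -0.166, 2-sided exact permutation p = 0.286 over 252 assignments, n = 5 each), and the fitted log2 fold change of -0.164 was -0.0983 without KI replicate 5. A substitution need not alter the transcript's level, so this does not check the labels.

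Genes of chromosome 10, with the pseudogene on chromosome 5, held the largest called differences. Tdg encodes the glycosylase that removes thymine from mismatches and oxidised methylcytosine from DNA, and lies 2.63 Mb from the start of Abca7. It was at 7.69, 7.12, 6.58, 13.5 and 7.74 CPM in control and at 21.4, 24.6, 19.4, 23.6 and 25.9 CPM in KI. Every KI library was above every control library, and control replicate 9 was the highest of its group. Tdg rose by 1.43 ± 0.14 on the log2 scale (log2 fold change ± SE, edgeR adjusted p = 8.7e-06). Cfap54, a gene needed for the beating of cilia, lies 12.78 Mb from Abca7 and was at 58.4, 54.3, 44.9, 32.2 and 48.6 CPM in control and at 13.5, 14.7, 16.9, 14.3 and 15.4 CPM in KI. It had a log2 fold change of -1.67 ± 0.13 (edgeR adjusted p = 2.31e-07), again with control replicate 9 nearest to KI. The list of ependyma and motile cilia markers, which holds Cfap54, had 7 of 28 members above 0 and a median of -0.183, from summed levels of 192 to 268 CPM in control and 174 to 207 CPM in KI. With the choroid plexus covariate that median was -0.0601, while Cfap54 had a log2 fold change of -1.62.

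Beside Tdg lies the uncharacterised gene 1190007I07Rik, with 1.98 to 2.82 CPM in control and 3.61 to 5.19 CPM in KI, which rose by 0.95 ± 0.14 (edgeR adjusted p = 0.00238). Hal, the histidine ammonia-lyase gene, 13.49 Mb from Abca7, had 18, 34, 20, 12 and 33 counts in control and 0, 4, 0, 1 and 2 counts in KI (edgeR adjusted p = 0.00225). The groups did not overlap at either gene, and with so few counts in KI no fold is given for Hal. The processed pseudogene Gm9855, on the other side of Abca7 at -37.94 Mb, was at 5.14, 6.18, 6.17, 2.98 and 5.93 CPM in control and 0.294, 0.241, 0.169, 0.146 and 0.13 CPM in KI (log2 fold change -4.74 ± 0.24, edgeR adjusted p = 5.93e-11). The pseudogene Gm15920 on chromosome 5 was at 21.1, 20.5, 19.7, 12.6 and 19.3 CPM in control and 2.77, 2.75, 2.64, 2.93 and 2.27 CPM in KI (log2 fold change -2.80 ± 0.14, edgeR adjusted p = 5.93e-11). RefSeq names Gm9855 as a pseudogene of Tdg and Gm15920 as one of Ndufa12, a complex I gene on chromosome 10, so the sharing of reads between each pair is uncertain. Tdg overlaps Glt8d2 on the opposite strand while the counting's strand setting is not known.

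Control replicate 9 lay between the groups at these genes. Measured on log2(CPM + 0.5), it stood 53.5% of the way from the mean of the other 4 controls to the KI mean at Tdg, 38% at Cfap54, 27.1% at Gm9855 and 24.2% at Gm15920. It stood 34% of the way at 1190007I07Rik and 53.8% at Hal. At the called sterol genes the same library stood at -15.6% for Insig1, 8.23% for Acat2, 6.4% for Fdft1 and -11% for Nsdhl, where a negative value points away from KI. No other control library lay more than 20.5% of the way toward KI at those 6 genes, the highest being control replicate 6 at Hal. Such a position was not particular to control replicate 9 over all called genes. At Insig1 control replicate 10 stood 55.7% of the way toward KI, and at Acat2 control replicate 8 stood 32.3%. Without control replicate 9, Tdg had a log2 fold change of 1.65 (edgeR adjusted p = 2.21e-10) and Cfap54 one of -1.8 (edgeR adjusted p = 4.2e-09), and 7 genes were called in all. The cause of that library's position was not tested.

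**Figure D2:**
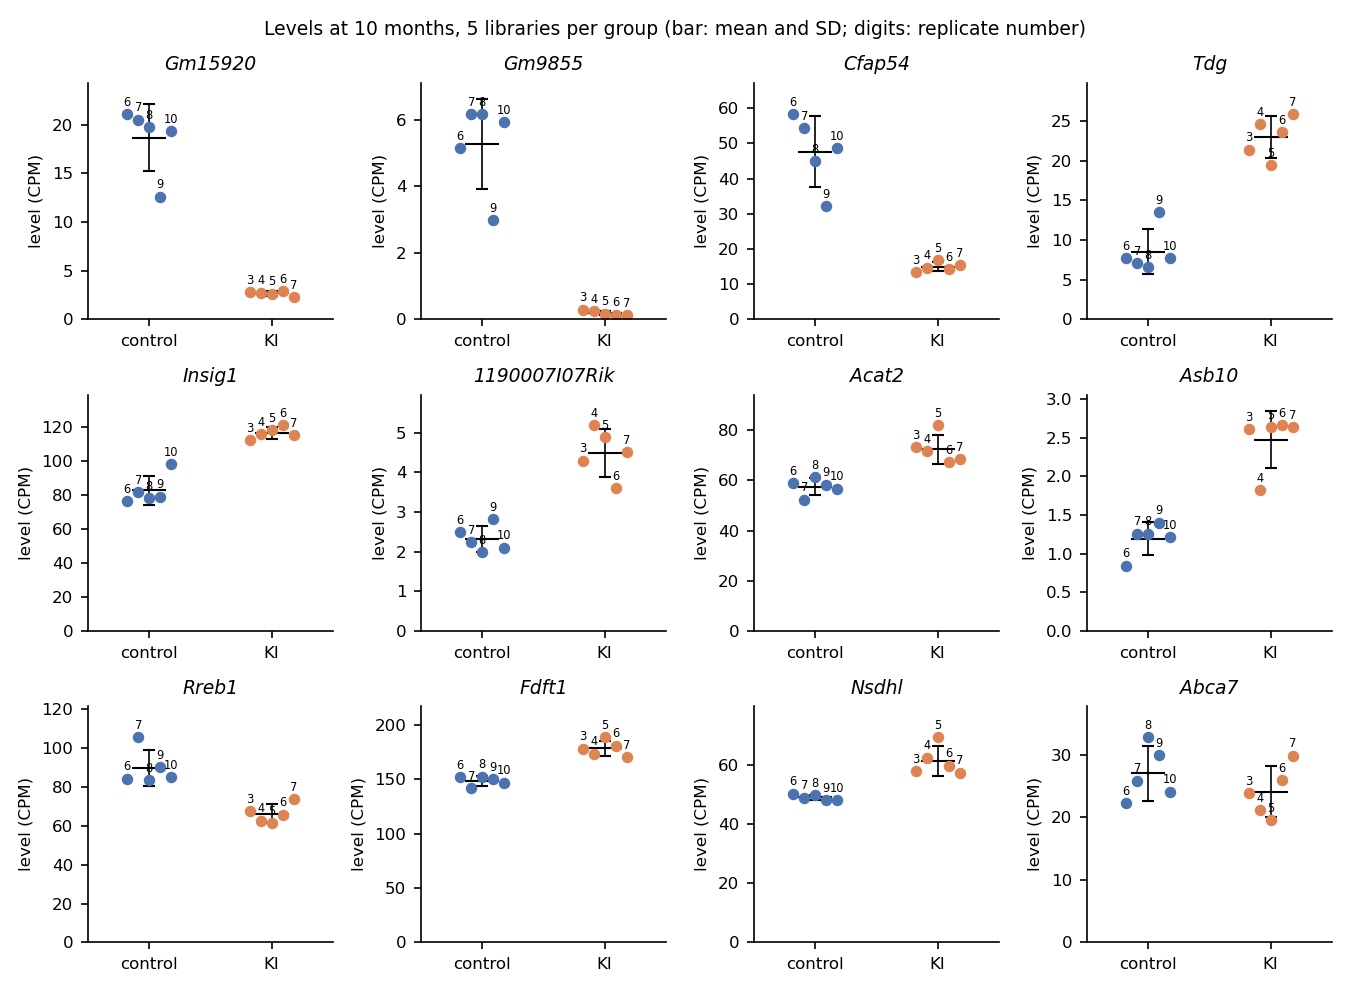
Level in CPM of 11 of the 12 called genes and of Abca7 in each of the 10 libraries at 10 months, with the group mean and SD as a bar and the replicate number beside each point. KI and control do not overlap at the called genes, control replicate 9 lies nearest to KI at Tdg, Cfap54, Gm9855 and Gm15920, and Abca7 overlaps.

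Chromosome 10 was also described as a whole. Of its 894 tested genes, the called ones included, 64 had an unadjusted p under 0.05 (7.16%, against 7.86% of all genes) and 24 had groups that did not overlap (2.68%, against 1.49%). Among uncalled genes of the chromosome, Txnrd1, the cytosolic thioredoxin reductase, 2.86 Mb from Abca7, was at 57.9 to 61.9 CPM in KI and 64.9 to 72.5 in control (log2 fold change -0.18 ± 0.05, edgeR adjusted p = 0.258). Celf5, an RNA-binding protein gene 1.46 Mb away, had -0.20 ± 0.05 (edgeR adjusted p = 0.207). Ndufa12 had 0.29 ± 0.07 (edgeR adjusted p = 0.258), and here control replicate 9, at 46.3 CPM, lay inside the KI range of 45.9 to 54.2 CPM.

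Genes of cholesterol synthesis and its sensing formed the other called set. Insig1, whose protein holds SREBP in the endoplasmic reticulum and which is itself a target of SREBP, was at 76.2, 81.6, 78.2, 78.8 and 97.8 CPM in control and at 112, 116, 118, 121 and 115 CPM in KI. All KI libraries were above all controls, and the KI libraries were close together while control replicate 10 was the highest control. Its mean was 82.5 ± 8.76 CPM in control and 116 ± 3.3 CPM in KI (SD, n = 5 each), and it rose by 0.49 ± 0.07 (edgeR adjusted p = 0.00225). Acat2, the cytosolic thiolase at the start of the mevalonate pathway, was at 58.9, 52.3, 61.2, 58.3 and 56.7 CPM in control and 73.2, 71.6, 82, 67.4 and 68.5 CPM in KI and rose by 0.34 ± 0.06 (edgeR adjusted p = 0.0258).

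Fdft1, squalene synthase, which commits the pathway to sterols, was at 152, 142, 152, 149.8 and 147 CPM in control and 178, 173, 189, 181 and 170.3 CPM in KI. Its counts are uncertain because it overlaps Ctsb on the opposite strand, and it rose by 0.26 ± 0.05 (edgeR adjusted p = 0.0452). Nsdhl, a dehydrogenase of the late pathway on the X chromosome, was at 50.3, 48.9, 49.7, 48.1 and 48.2 CPM in control and 57.8, 62.5, 69.5, 59.7 and 57.4 CPM in KI and rose by 0.32 ± 0.06 (edgeR adjusted p = 0.0497). The controls of both genes were tightly grouped, and KI replicate 5 was the highest library at both. These 2 calls and that of Acat2 were near the threshold: under 19 alternative settings Insig1 stayed called in 18, Acat2 in 8, Fdft1 in 4 and Nsdhl in 4. Leaving out any library ended the calls of Fdft1 (adjusted p 0.0775 to 0.307 over all 10) and Nsdhl (0.0526 to 0.255).

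To show what lies before these genes, the 250 bases ahead of the annotated start (RefSeq, GRCm38.p6, each on its gene's strand) are given for the 3 called sterol genes that the promoter table holds and for Hmgcs1, HMG-CoA synthase. Capitals mark CACNCCAC, a core of the sterol element bound by SREBP, and CCAAT, bound by NF-Y, a factor known to act beside SREBP, each on either strand (on the other strand CCAAT reads ATTGG) and with no overlap between them. The motifs were chosen with the sterol result in view.
Insig1 (chr5:28071162-28071411, plus strand): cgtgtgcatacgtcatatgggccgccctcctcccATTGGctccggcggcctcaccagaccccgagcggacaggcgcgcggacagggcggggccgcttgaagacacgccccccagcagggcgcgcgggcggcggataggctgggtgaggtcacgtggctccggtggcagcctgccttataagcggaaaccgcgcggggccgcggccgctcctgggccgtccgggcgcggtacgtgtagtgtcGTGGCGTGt
Acat2 (chr17:12960726-12960975, minus strand): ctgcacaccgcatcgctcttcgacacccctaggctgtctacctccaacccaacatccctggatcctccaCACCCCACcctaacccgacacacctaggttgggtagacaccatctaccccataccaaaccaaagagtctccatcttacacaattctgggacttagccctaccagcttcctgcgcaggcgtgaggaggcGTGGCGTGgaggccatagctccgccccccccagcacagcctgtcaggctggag
Nsdhl (chrX:72918271-72918520, plus strand): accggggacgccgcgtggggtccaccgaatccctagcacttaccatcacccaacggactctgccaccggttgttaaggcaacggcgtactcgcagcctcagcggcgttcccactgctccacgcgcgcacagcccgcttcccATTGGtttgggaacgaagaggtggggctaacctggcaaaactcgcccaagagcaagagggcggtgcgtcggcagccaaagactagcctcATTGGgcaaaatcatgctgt
Hmgcs1 (chr13:119690101-119690350, plus strand): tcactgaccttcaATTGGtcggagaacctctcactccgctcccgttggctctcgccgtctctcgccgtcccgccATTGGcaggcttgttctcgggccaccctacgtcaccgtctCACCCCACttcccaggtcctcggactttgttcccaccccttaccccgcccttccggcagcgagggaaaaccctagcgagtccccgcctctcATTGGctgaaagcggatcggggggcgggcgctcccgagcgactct
CACNCCAC was found once before Insig1, 9 bases from the start, once before Hmgcs1, at 2 places before Acat2 and not before Nsdhl. CCAAT was found 3 times before Hmgcs1, at 2 places before Nsdhl, once before Insig1 and not before Acat2. Among the 21 genes of the cholesterol synthesis list, 16 were in the table; they had 19 promoters, of which 2 held CACNCCAC, against 5.29% of all 32851 promoters, and 15 held CCAAT, against 33.8%. A match is only a run of letters, and none of these windows was assayed.

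The wider pathway lay on the same side. Of 21 members of the cholesterol synthesis list, 19 had a log2 fold change above 0 (50.0% of all genes, 9819 of 19623), and the median was 0.183 against 0.00 for all genes. On the higher side 3 were called (0.0357% of all genes) and 10 had an unadjusted p under 0.05 (4.53% of all genes). At 8 of the 21 every KI library was above every control library (0.907% of all genes). The list's score (mean log2 CPM of its members, centred per gene) ran from -0.157 to -0.004 in control and from 0.062 to 0.114 in KI, so the groups did not overlap. The median was 0.178 without KI replicate 5, 0.179 with the choroid plexus covariate and 0.128 in the libraries of 3 months, which share no library with these and where 21 of 21 lay above 0 (52.4% of all genes).

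In the mevalonate arm, 8 of 9 members lay above 0 (median 0.218). Hmgcs1 was at 329.8 to 368 CPM in control and 380.0 to 404 CPM in KI (0.16 ± 0.07, edgeR adjusted p = 0.581). It did not pass, although the libraries of the groups did not overlap. Fdps, farnesyl diphosphate synthase, had 0.29 ± 0.07 (edgeR adjusted p = 0.258) with overlapping groups. From squalene to cholesterol, 11 of 12 members lay above 0 (median 0.174). Sqle, squalene monooxygenase, was at 89.2 to 98.3 CPM in control and 104 to 125 CPM in KI (0.23 ± 0.06, edgeR adjusted p = 0.258), and the highest of those was KI replicate 5. Msmo1, a sterol methyl oxidase, was at 108 to 126 and 131 to 171 CPM (0.31 ± 0.08, edgeR adjusted p = 0.261).

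Sterol uptake and carrier genes as a whole lay near 0, with 6 of 10 members above 0 and a median of 0.013. On the higher side 3 had an unadjusted p under 0.05 (4.53% of all genes). Among them Stard4, a cytosolic sterol carrier, was at 59.5 to 72.2 CPM in control and 79.8 to 88.7 CPM in KI (0.33 ± 0.08, edgeR adjusted p = 0.258). Npc2, the soluble cholesterol carrier of the lysosome, had 0.23 ± 0.07 (edgeR adjusted p = 0.372). Of the genes of the sensing machinery other than Insig1, 1 of 6 had a log2 fold change above 0, and Srebf2, the SREBP of sterol genes, was at 155 to 231 CPM in control and 146 to 201 CPM in KI (-0.02 ± 0.13, edgeR adjusted p = 0.981, and 0.0402 without KI replicate 5). Fatty acid synthesis, which SREBP-1 governs, had 0 of 20 members at an unadjusted p under 0.05 (7.86% of all genes) and a median of 0.047 with 16 above 0. Sterol efflux and turnover had 0 of 14 at such a p and a median of -0.030, which was -0.0562 without KI replicate 5.

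**Figure D3:**
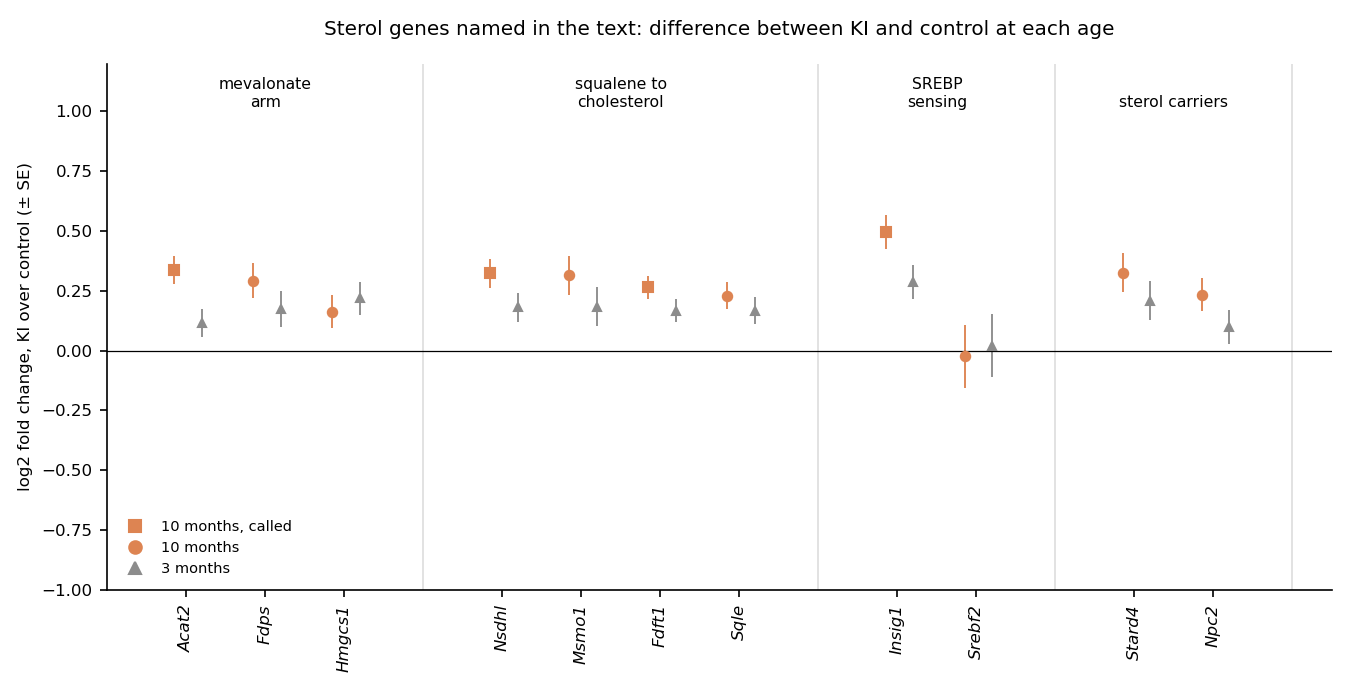
Log2 fold change, KI over control, with its SE for 11 sterol genes at 10 months (orange; squares are called) and at 3 months (grey triangles), grouped by role; these are the members named in the text, chosen in part by small p, and the others are not shown. Insig1, Acat2, Fdft1 and Nsdhl are the called genes, and the synthesis genes shown lie above 0 at 10 months.

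Outside these sets, 2 genes were called. Asb10, which encodes an ankyrin repeat and SOCS box protein, was at 0.843, 1.26, 1.26, 1.4 and 1.21 CPM in control and 2.61, 1.82, 2.64, 2.66 and 2.64 CPM in KI, a low level at which KI replicate 4 was the lowest of its group. It rose by 1.05 ± 0.19 at 10 months (edgeR adjusted p = 0.0452). At 3 months it had -0.67 ± 0.31, from only 8, 11, 5, 17 and 6 counts in control and 4, 8, 7, 4 and 7 in KI. Rreb1, a zinc finger transcription factor, was at 84.2, 106, 83.6, 90.3 and 84.9 CPM in control and 67.6, 62.6, 61.2, 65.7 and 73.6 CPM in KI; it fell by 0.44 ± 0.08 (edgeR adjusted p = 0.0452) and had 0.04 ± 0.08 at 3 months. Each of these calls was kept in 7 of 19 alternative settings and in 1 of the 10 that left out a library.

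Whether the genotype difference itself differed between ages was tested as an interaction, and 0 genes passed in edgeR (0.0%), where 883 had an unadjusted p under 0.05; DESeq2 called 4 and limma-voom 3. For Asb10, which had few counts at 3 months, the difference between ages was 1.72 ± 0.37 (edgeR adjusted p = 0.489). It was -0.48 ± 0.12 for Rreb1 (edgeR adjusted p = 0.564) and 0.21 ± 0.10 for Insig1 (edgeR adjusted p = 0.999). The flavin monooxygenase gene Fmo2 had the smallest adjusted p of the interaction, at 0.409 (1.72 ± 0.34).

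The 18 genes next in order of p did not pass, with edgeR adjusted p from 0.0593 to 0.21. Of these, 12 lay above 0 and 6 below, and the groups did not overlap at 14 (1.49% of all genes). DESeq2 called all 18 (0.296% of all genes were called) and limma-voom 14 (0.382%). The 18 were picked by small p in the same libraries, so these counts are not separate support. Kcnip4, a calcium sensor that binds voltage-gated potassium channels, lay just outside the threshold at 61.5, 57.5, 59, 61.6 and 60 CPM in control and 73.3, 82.7, 80.4, 72.1 and 70.4 CPM in KI (0.34 ± 0.07). Rnase4, a secreted ribonuclease whose gene overlaps Ang, was at 25.6 to 31.1 CPM in control and 34.5 to 47 CPM in KI (0.42 ± 0.09). Inhba, the gene of an activin subunit, was at 3.29, 3.2, 3.2, 2.67 and 2.77 CPM in control and 1.53, 1.85, 1.87, 2.33 and 2.03 CPM in KI (-0.65 ± 0.14), and at 3 months it had -0.68 ± 0.14.

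Srxn1, sulfiredoxin, which repairs peroxiredoxins, was at 107, 106, 106, 107 and 109 CPM in control, a very narrow range, and at 122, 129.5, 131, 120.1 and 115 CPM in KI (0.21 ± 0.05). Bag1, a co-chaperone of HSP70, had 0.23 ± 0.05, and Fmo2 1.06 ± 0.24 with overlapping groups. Fcrls, a receptor-like gene of homeostatic microglia, was at 27.8, 29.6, 29.5, 42.4 and 36.5 CPM in control and 55.7, 49.3, 70.7, 62.7 and 44.9 CPM in KI (0.77 ± 0.18). Krr1, a factor of ribosome assembly on chromosome 10 that overlaps Glipr1, had 0.32 ± 0.07, the chromatin protein gene Hmgb3 0.29 ± 0.07, Scrn1 0.20 ± 0.05 and Pradc1, which overlaps Cct7, 0.46 ± 0.10. Hpse, heparanase, had 0.73 ± 0.17. On the lower side, Auts2, a neurodevelopmental nuclear protein, had -0.27 ± 0.06, the transcriptional repressor gene Bach2 -0.46 ± 0.11, the contactin-associated gene Cntnap5c -0.85 ± 0.20, and Dio3, the deiodinase that inactivates thyroid hormone, was at 1.67 to 2.86 CPM in control and 0.633 to 1.34 CPM in KI.

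Fold change at 10 months also moved with gene length. Among genes of at least 10 CPM split into 6 classes by the length in the deposited table, the shortest class (up to 2253 bases, 1766 genes) had a median log2 fold change of 0.052, with 189 genes higher and 24 lower at an unadjusted p under 0.05. The longest class (from 7749 bases, 1763 genes) had a median of -0.037, with 28 higher and 78 lower. The medians fell in every step between them, and in the libraries of 3 months they lay between -0.005 and 0.003. Log2 CPM was first centred per gene over the 20 libraries of the series. Each library then has a slope of this centred value on log2 length, relative to the average of the 20 libraries. It was 0.0346, -0.00755, -0.0579, -0.0564 and 0.0262 in control replicates 6 to 10 and -0.0656, -0.0672, -0.0451, -0.0241 and -0.00622 in KI replicates 3 to 7, so the groups overlap and control replicates 6 and 10 are the only ones above 0. With this slope as a covariate, an alternative chosen after seeing the data, the class medians were 0.009 to 0.014 and 25 genes were called, 16 higher and 9 lower, with all 12 among them; Stard4, Msmo1, Krr1 and Kcnip4 passed there. Among gene lists, values with this covariate are given only for plaque-associated microglia, lysosome, oxidative phosphorylation and cholesterol synthesis. The part of length in the other results was not tested.

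**Figure D4:**
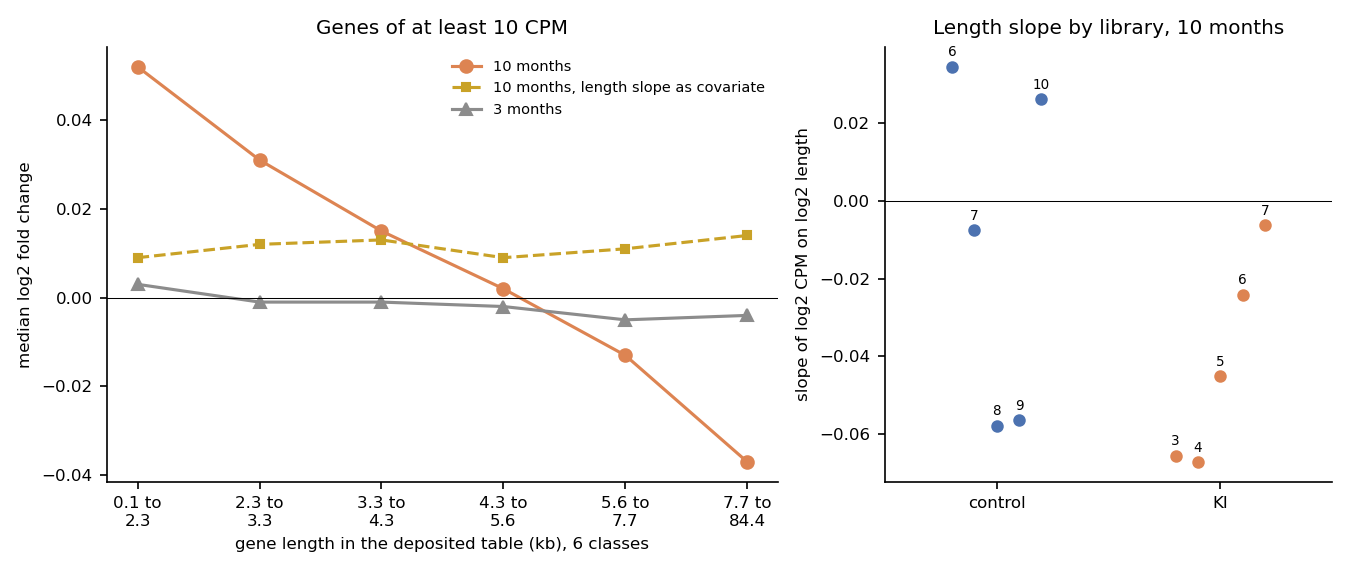
Left, median log2 fold change of genes of at least 10 CPM in 6 classes of gene length (kb) at 10 months, at 10 months with the length slope as a covariate, and at 3 months. Right, each library's slope of log2 CPM, centred per gene over the 20 libraries of the series, on log2 length at 10 months. The 10-month medians fall from 0.052 to -0.037 while the 3-month medians stay near 0, and the slopes of control and KI overlap.

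Genes of the microglial response to plaques lay above 0 in KI as a list, but none was called. Of 26 such genes, 24 had a log2 fold change above 0, and the median was 0.305. On the higher side 13 had an unadjusted p under 0.05 (4.53% of all genes). At 2 genes, Tyrobp and Ccl3, the groups did not overlap (0.907% of all genes with KI above). The list's score ran from -0.361 to 0.003 in control and from -0.102 to 0.448 in KI; the groups overlapped, and the highest score was that of KI replicate 5. Without that library the median was 0.245 with 23 members above 0, and with the length slope as a covariate it was 0.335. In bulk cortex, more cells of a type and more RNA per cell cannot be told apart.

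Tyrobp, the adaptor that passes on the signal of Trem2, was at 41.1, 54.4, 52.9, 62.5 and 65.2 CPM in control and 76.6, 70.4, 93.9, 75.4 and 72 CPM in KI (0.49 ± 0.13, edgeR adjusted p = 0.305). Trem2, the lipid-sensing receptor, was at 31, 39, 43.1, 51.6 and 42.4 CPM in control and 55.5, 47.1, 59.6, 60 and 55.4 CPM in KI (0.42 ± 0.12, edgeR adjusted p = 0.372). Tyrobp stood highest in KI replicate 5, and at Trem2 control replicate 9 reached into the KI range. The chemokine gene Ccl3 was at 4.51 to 6.6 CPM in control and 7.12 to 9.61 CPM in KI (0.57 ± 0.20, edgeR adjusted p = 0.45).

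Among secreted and late genes of this state, Cst7, a cystatin, was at 31.2, 27.9, 26.3, 38.8 and 41.9 CPM in control and 47.8, 40.1, 71.5, 57.9 and 50.7 CPM in KI (0.69 ± 0.25, edgeR adjusted p = 0.46). Spp1, osteopontin, was at 15.9, 23, 17.9, 17.6 and 25.5 CPM in control and 25.8, 22.3, 55.8, 31.3 and 48.8 CPM in KI (0.88 ± 0.24, edgeR adjusted p = 0.324). Their groups overlapped, with KI replicates 5 and 7 highest at Spp1. Clec7a, a pattern receptor, had 0.71 ± 0.40 with KI replicate 5 at 38.8 CPM and the other KI libraries at 13.4 to 15.7 CPM, and 0.277 without it. Dkk2, a Wnt antagonist, had 0.86 ± 0.20 (edgeR adjusted p = 0.21) and 0.697 without KI replicate 5.

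General microglial markers moved less. The homeostatic list had 15 of 16 members above 0, a median of 0.109 and 1 member, Fcrls, at an unadjusted p under 0.05 (4.53% of all genes on the higher side). Without KI replicate 5 the median was 0.0691. Markers of microglia in general had 9 of 9 members above 0, a median of 0.11, and 0.0319 without KI replicate 5. Their summed level was 623 to 768 CPM in control and 694 to 934 CPM in KI, with the highest value in KI replicate 5. Cx3cr1, the fractalkine receptor, had 0.13 ± 0.08 and 0.0527 without KI replicate 5. Markers of border macrophages, which sit at vessels and meninges, had 10 of 10 members above 0, a median of 0.329 and 0.237 without KI replicate 5, from summed levels of 6.38 to 19.1 CPM in control and 14 to 23.5 CPM in KI.

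Lysosomal genes, many of them microglial, had 44 of 54 members above 0, a median of 0.0921 and 14 at an unadjusted p under 0.05, all higher (4.53% of all genes). The median was 0.0709 without KI replicate 5 and 0.0941 with the length slope as a covariate. The proteases had the highest median of the list's 3 roles, 0.168. Ctsd, cathepsin D, was at 773, 876, 964, 921 and 1020.0 CPM in control and 1131, 946, 1257, 1181 and 1208 CPM in KI (0.33 ± 0.09, edgeR adjusted p = 0.299). Ctsb, cathepsin B, which overlaps Fdft1, had 0.21 ± 0.05 (edgeR adjusted p = 0.261). Gusb, a glucuronidase, had 0.31 ± 0.08 (edgeR adjusted p = 0.242). Ctsd, Ctsb and Gusb each had a KI library inside the control range.

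Medians of immune lists outside the plaque state rested in large part on KI replicate 5. The interferon response list had 20 of 30 members above 0, a median of 0.061, and 12 above 0 with a median of -0.0565 without that library; the median was 0.0323 with the choroid plexus covariate. Oas1a, an antiviral synthetase, was the member whose groups did not overlap, at 0.796 to 1.08 CPM in control and 1.12 to 1.59 CPM in KI (0.50 ± 0.16, edgeR adjusted p = 0.421). Cytokine and receptor genes had a median of 0.159 and 0.0725 without it, and complement genes 0.111 and 0.0353. MHC class II genes lay below 0 at 6 of 7 members (median -0.303); their invariant chain, Cd74, was at 18.4, 4.97, 63.1, 10.2 and 9.87 CPM in control and 7.57, 10.6, 14.2, 9.13 and 15.5 CPM in KI, so that control replicate 8 alone sets the difference (-0.90 ± 0.50, and 0.0687 without that library, and -0.473 with the choroid plexus covariate).

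Reactive astrocyte genes had 17 of 24 members above 0, a median of 0.127, and 0.0224 without KI replicate 5. Gfap, the astrocyte filament gene, was at 548, 684, 910.3, 769 and 826 CPM in control and 910.2, 682, 1107, 996 and 822 CPM in KI (0.27 ± 0.13, edgeR adjusted p = 0.633), and Serpina3n, a protease inhibitor of reactive astrocytes, had 0.37 ± 0.18 and 0.204 without KI replicate 5. The groups overlapped at both.

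**Figure D5:**
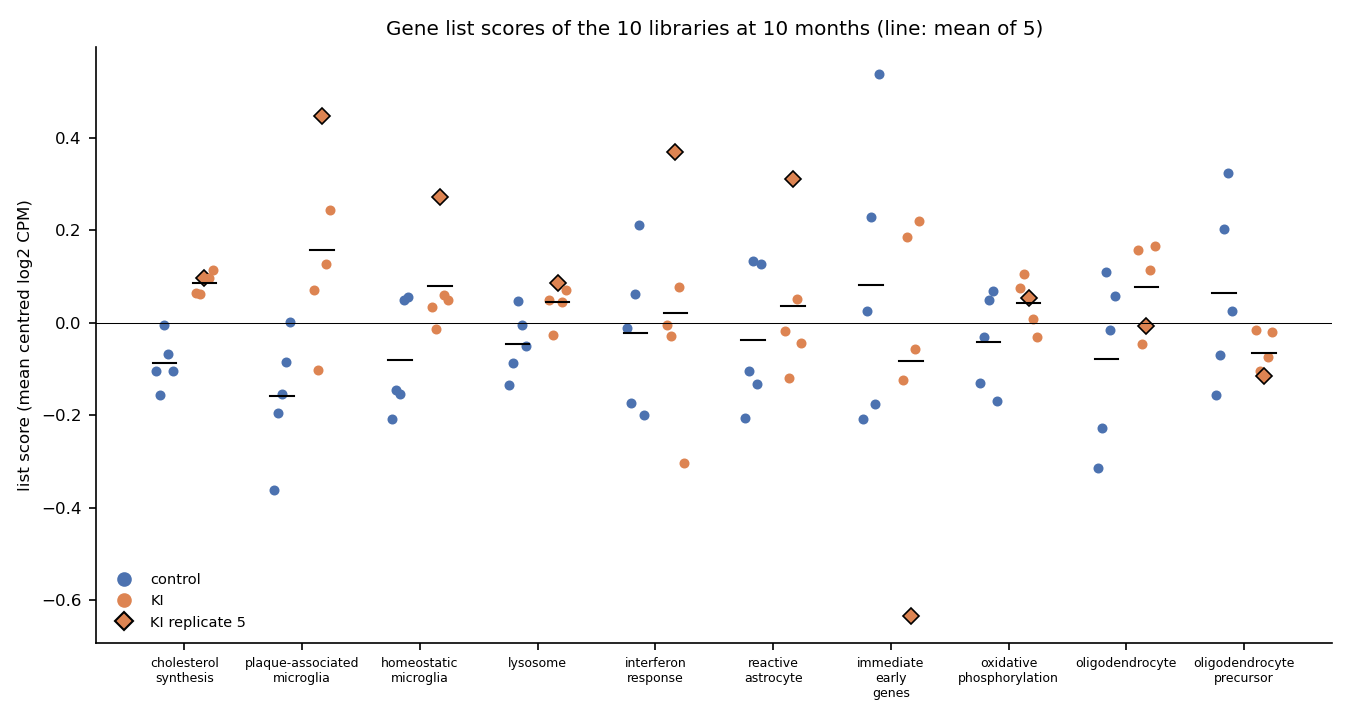
Score of each gene list (mean over members of log2 CPM centred per gene) in the 5 control and 5 KI libraries at 10 months, with the group mean as a line and KI replicate 5 as a diamond. The groups are apart for cholesterol synthesis and overlap for the other 9 lists shown, and KI replicate 5 is the highest for the plaque-associated, homeostatic, lysosome, interferon and reactive astrocyte lists and the lowest for immediate early genes.

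Among neuronal genes, synaptic genes had 22 of 51 members above 0, a median of -0.0324 and 3 at an unadjusted p under 0.05 (7.86% of all genes). Without KI replicate 5 the median was -0.012, with 6 at such a p (1768 of all genes tested in that fit). Homer1, a scaffold of the postsynaptic density that neuronal activity also induces, was at 168, 152, 149.7, 134 and 142 CPM in control and 107, 124, 111, 112 and 114 CPM in KI; the groups did not overlap but it did not pass (-0.39 ± 0.12, edgeR adjusted p = 0.382). Immediate early genes of neuronal activity had 2 of 28 members above 0, a median of -0.143, with 11 above 0 and a median of -0.068 without KI replicate 5. Egr3 was at 14.7, 17.2, 25.7, 16 and 18.7 CPM in control and 13.5, 12.9, 8.27, 14.9 and 16.4 CPM in KI (-0.48 ± 0.18, edgeR adjusted p = 0.494), lowest in KI replicate 5. Clock genes had 14 of 20 members above 0 and a median of 0.057, with 3 higher and 1 lower at an unadjusted p under 0.05 (4.53% and 3.33% of all genes). Without KI replicate 5, 15 lay above 0, the median was 0.149 and 8 had such a p (1768 of all genes tested in that fit). The 1 lower gene, Arntl, the positive arm's BMAL1, was at 27.5 to 31.4 CPM in KI and 32 to 37.6 CPM in control (-0.21 ± 0.07, edgeR adjusted p = 0.441).

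In the oligodendrocyte lineage, markers of mature cells and of precursors lay on opposite sides. Mature markers had 11 of 11 members above 0, a median of 0.154, and precursor markers had 1 of 11 members above 0, a median of -0.144. Each list had 1 member at an unadjusted p under 0.05 (7.86% of all genes) and overlapping scores. Mog, a myelin protein gene, was at 43.2, 44.8, 55.7, 52 and 53.8 CPM in control and 63.7, 61.3, 51.9, 59.8 and 67.3 CPM in KI (0.29 ± 0.11, edgeR adjusted p = 0.495). Gpr17, a gene of maturing precursors, was at 33.7, 41.2, 47.7, 73.6 and 37.9 CPM in control and 32.9, 35.1, 29.7, 30.7 and 39.4 CPM in KI (-0.48 ± 0.15, edgeR adjusted p = 0.421), and control replicate 9 was its highest library: without it the log2 fold change was -0.269. Endothelial markers had 3 of 12 members above 0, a median of -0.0876, and 5 above 0 with a median of -0.0563 without KI replicate 5, with Cldn5, a tight junction gene, at 9.61 to 13.9 CPM in control and 7.59 to 9.87 CPM in KI (-0.52 ± 0.17, edgeR adjusted p = 0.426).

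Nuclear genes of oxidative phosphorylation had 48 of 54 members above 0, a median of 0.0761 and 14 at an unadjusted p under 0.05, all higher (4.53% of all genes). They are short, with a median length of 1551 bases against 4294 for genes of at least 10 CPM, and with the length slope as a covariate 32 lay above 0 and the median was 0.0377. Ndufs4, a complex I subunit, had 0.15 ± 0.06 (edgeR adjusted p = 0.545). The same covariate gave 0.218 for cholesterol synthesis, whose members have a median length of 3233 bases.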

How the data were processed

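RNA from cortex was sequenced on an Illumina platform, per the labels' protocols. The deposited table holds whole-number read counts per gene for 20 libraries, with gene lengths, which the authors made on the mm10 build (per the submitters' processing notes). Which aligner, counter, strand setting and annotation release they used is not given in the sources used here. Groups came from the titles. Of 43346 genes, 19623 passed filterByExpr. The main test was edgeR 4.0.16 in R 4.3.3 (TMM, robust quasi-likelihood, 4 group means over the 20 libraries, 16 residual degrees of freedom before shrinkage), with Benjamini-Hochberg adjustment at 0.05. The SE of a log2 fold change is its size over the square root of F. Alternatives were DESeq2 1.42.0, limma 3.58.1 (voom with quality weights), other scaling and filters, the 10-month libraries alone, a replicate block, a choroid plexus covariate and leaving out each library; a length slope covariate was chosen after seeing the data. The scripts were tested on simulated data, with 50 genes of at least 1 CPM changed at each size. They recovered 10% of 1.2-fold, 64% of 1.5-fold, 90% of 2-fold and 98% of 4-fold changes, with 5 false calls. Small differences can thus be missed by the main test.

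Named genes are all called genes, the next by p with a mean of at least 1 CPM and no predicted symbol (30 in all with the called ones), Abca7, and from each list role its key members and up to 4 of smallest p. A few genes that the rule names are not reported here. The comparison and the 37 gene lists were chosen with earlier results of these data known. Promoters are RefSeq's on GRCm38.p6, the mm10 assembly. Where 2 replicates of a group were compared by chi-square, none agreed within sampling noise. Intervals are not given for single libraries, since the replicate spread exceeds counting error.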

Additional observations from a re-analysis of the deposited data

Results flagged for a closer look

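In 202 groups of 5 libraries (126 of gene levels, the rest of list scores and length slopes), 20 (9.9%) had 1 library far from the other 4. Chance flags about 1 group in 20. Of the 20 flagged groups, 9 were KI replicate 5. It was highest at Xist (1016 CPM), Sqle (124.6 CPM), Tyrobp (93.9 CPM) and Clec7a (38.8 CPM) and lowest at Pradc1 (14.3 CPM). Its list scores were highest for homeostatic microglia (0.272), complement (0.345) and inflammatory cytokines and receptors (0.301) and lowest for base excision repair and demethylation (-0.094).

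Control replicate 9 was lowest at Gm15920 (12.6 CPM) and highest at Tdg (13.5 CPM), between its own group and KI at both. Control replicate 10 was highest at Insig1 (97.8 CPM) and Srxn1 (108.7 CPM) and lowest at Auts2 (51.2 CPM). Control replicate 8 was highest at Cd74 (63.1 CPM) and in the thalamic marker score (0.06). Among KI libraries, replicate 3 was lowest at Arntl (27.5 CPM), replicate 4 lowest at Asb10 (1.82 CPM), replicate 6 highest at Scrn1 (380.0 CPM) and replicate 7 lowest at Bag1 (105.3 CPM).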

How the results depend on the processing

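The 12 calls (7 higher, 5 lower) became 58 in DESeq2 (35 and 23), 75 in limma-voom (44 and 31), 25 with the length slope covariate (16 and 9), 7 with only the 10-month libraries or the choroid plexus covariate (3 higher in each), and 9 without a filter (4 higher). Leaving out 1 library gave 7 to 14 calls, 3 to 10 of them higher and 4 to 6 lower. The interaction had 4 calls in DESeq2, 3 in limma-voom and 0 in the other settings run. Tdg, Cfap54, Gm9855 and Gm15920 stayed called in all 19 alternatives. Replicate numbers 6 and 7 occur in both groups, and their libraries correlated at -0.193 and 0.00564. Both values lay within the range of the other pairs (-0.236 to 0.218), so no sign of pairing was seen, though so few pairs cannot settle it. With the replicate block 4 genes were called, 1 higher and 3 lower, and Abca7 had a log2 fold change of 0.129. In that fit KI and control are linked only through numbers 6 and 7, since every other number occurs in 1 genotype. Srebf2 (-0.0242) turned to 0.0774 in limma-voom and 0.201 with the block, and ran from -0.0775 to 0.0766 when 1 library was left out (0.0402 without KI replicate 5). Cd74 ran from -1.16 to 0.0687, the latter without control replicate 8. The causes were not tested. Of 570 list medians under alternatives, 7 moved by more than the spread, 6 of them with the block. Levels under 1 CPM had a median SE of 0.307, so small differences there were not detectable.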

Other observations

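Beyond the called genes, 11 uncalled genes had an absolute log2 fold change of at least 2, and those named here were chosen after their values were seen. In most of them a few libraries set the difference. Slc6a5, the glycine transporter of inhibitory neurons in hindbrain and spinal cord, had 608 counts in KI replicate 5 and 3 to 22 in the other 9 libraries. Lcn2, lipocalin, a protein of acute inflammation, had 108 and 218 counts in control replicates 7 and 10 and at most 26 elsewhere.

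Of 4 processed pseudogenes among them, 3 had high counts in some libraries of 1 group. Gm8210 had 238 and 269 counts in control replicates 7 and 10 and 0 to 7 in the others. Hmgb1-ps7 had 216, 551 and 409 counts in KI replicates 3, 5 and 6 and 14 to 31 in the others. Gm6969 had 1727, 804 and 960 counts in KI replicates 4, 5 and 7 and 132 to 208 in the others. The other, Gm11677, varied in both groups, with 4 to 19 counts in control and 0 to 14 in KI. Some libraries recurred among those with high counts. Control replicates 7 and 10 were high at both Lcn2 and Gm8210, and KI replicate 5 was high at Slc6a5, Hmgb1-ps7 and Gm6969. The other high KI libraries differed between Hmgb1-ps7 and Gm6969. The cause was not tested.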
